A study of Mus musculus with 18 samples.

Results

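The genes described here are 9 genes of glutamate and GABA uptake and recycling, taken as a named list out of 35869 gene symbols in the files: Slc1a2, Slc1a3, Glul, Glud1, Slc38a3, Slc6a11, Abat, Grm3 and Grm5. Their RNA was measured in microglia and astrocytes sorted from the brains of adult C57BL/6 mice. The question addressed by the series is what loss of the TGF-β1 ligand from microglia does to microglia and to neighbouring astrocytes. KO mice carried Cx3cr1CreERT2 and loxP-flanked alleles of Tgfb1 (Tgfb1fl/fl), and control mice carried Cx3cr1CreERT2 alone, although the labels give their genotype as WT. Cx3cr1CreERT2 is a Cre recombinase that tamoxifen switches on wherever Cx3cr1 is active, which includes brain border macrophages as well as microglia. Both genotypes received 5 oral doses of tamoxifen at 180 mg/kg, and the labels give no age in weeks. The groups were KO astrocytes (n = 4, mice 1 to 4), control astrocytes (n = 5, mice 1 to 5), KO microglia (n = 4, mice 1 to 4) and control microglia (n = 4, mice 1, 2, 4 and 5). All libraries were sorted populations and not single cells, so fewer expressing cells and less RNA per cell cannot be told apart.

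Astrocytes clear the glutamate and much of the GABA that neurons release. Glutamate enters through sodium-driven carriers, is turned into glutamine or burned as fuel inside the cell, and glutamine is handed back to neurons for new transmitter. Microglia are not the main site of this cycle, although they are known to make glutamine synthetase and to carry some glutamate transporter.

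Values are TPM, the share of transcripts scaled to a fixed total and corrected for length, which the authors deposited with 1 decimal. The files keep no read depth, so no counting interval can be given. In KO microglia Tgfb1 itself was at 1.3 to 2.0 TPM, against 2.8 to 3.4 TPM in control microglia (log2 fold change -0.57, SE 0.16, limma adjusted p = 0.0258). It was at most 0.3 TPM in KO astrocytes and at most 0.1 TPM in control astrocytes. Genes at 1 TPM or more numbered 14674 to 15484 in KO astrocytes, 14086 to 15011 in control astrocytes, 12903 to 13127 in KO microglia and 12456 to 12849 in control microglia. The sum of 10 microglia markers was 15415 to 16671 TPM in KO microglia, against 43439 to 46615 TPM in control microglia. That of 8 border-associated macrophage markers was 4950 to 5557 TPM in KO microglia, against 425 to 747 TPM in control microglia, and its part in the microglial results was not tested. Of these 8 markers 5 were called higher and 1 lower: Pf4 averaged 2825 TPM in KO microglia and 161 TPM in control microglia, and Mrc1 1629 TPM in KO microglia and 108 TPM in control microglia. Cbr2 was lower (log2 fold change -0.54, adjusted p = 0.0283), and Lyve1 (-1.24) and Cd163 (0.58) were not called. Xist RNA was present in all KO mice and in control mice 1 and 2, and the Y-linked Ddx3y in control mice 3, 4 and 5. Fits with control mice 1 and 2 alone, or with the other controls alone, are given where they change a result.

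In control mice Slc1a3, Glul, Glud1 and Grm3 were each called higher in astrocytes than in microglia, where 65.7% of all genes tested were called, 39.5% higher and 26.2% lower. The other 5 genes were also called higher, but they passed the filter of 1 TPM in at least 4 libraries only through the astrocytes, which fixed their direction, so a count over all 9 is no result. All tests used limma on log2(TPM + 1) with Benjamini-Hochberg adjustment over all genes tested, at a threshold of 0.05. In control astrocytes the level per transcript length fell in the order Slc1a3, Glul, Grm3, Slc1a2, Glud1, Slc6a11, Abat, Slc38a3 and Grm5. The ranges of Glud1 and Slc6a11, and of Slc6a11 and Abat, overlapped, and the other neighbours in that order did not overlap. Slc1a3 was the 8th most abundant gene on average in KO astrocytes and the 8th in control astrocytes.

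**Figure D1:**
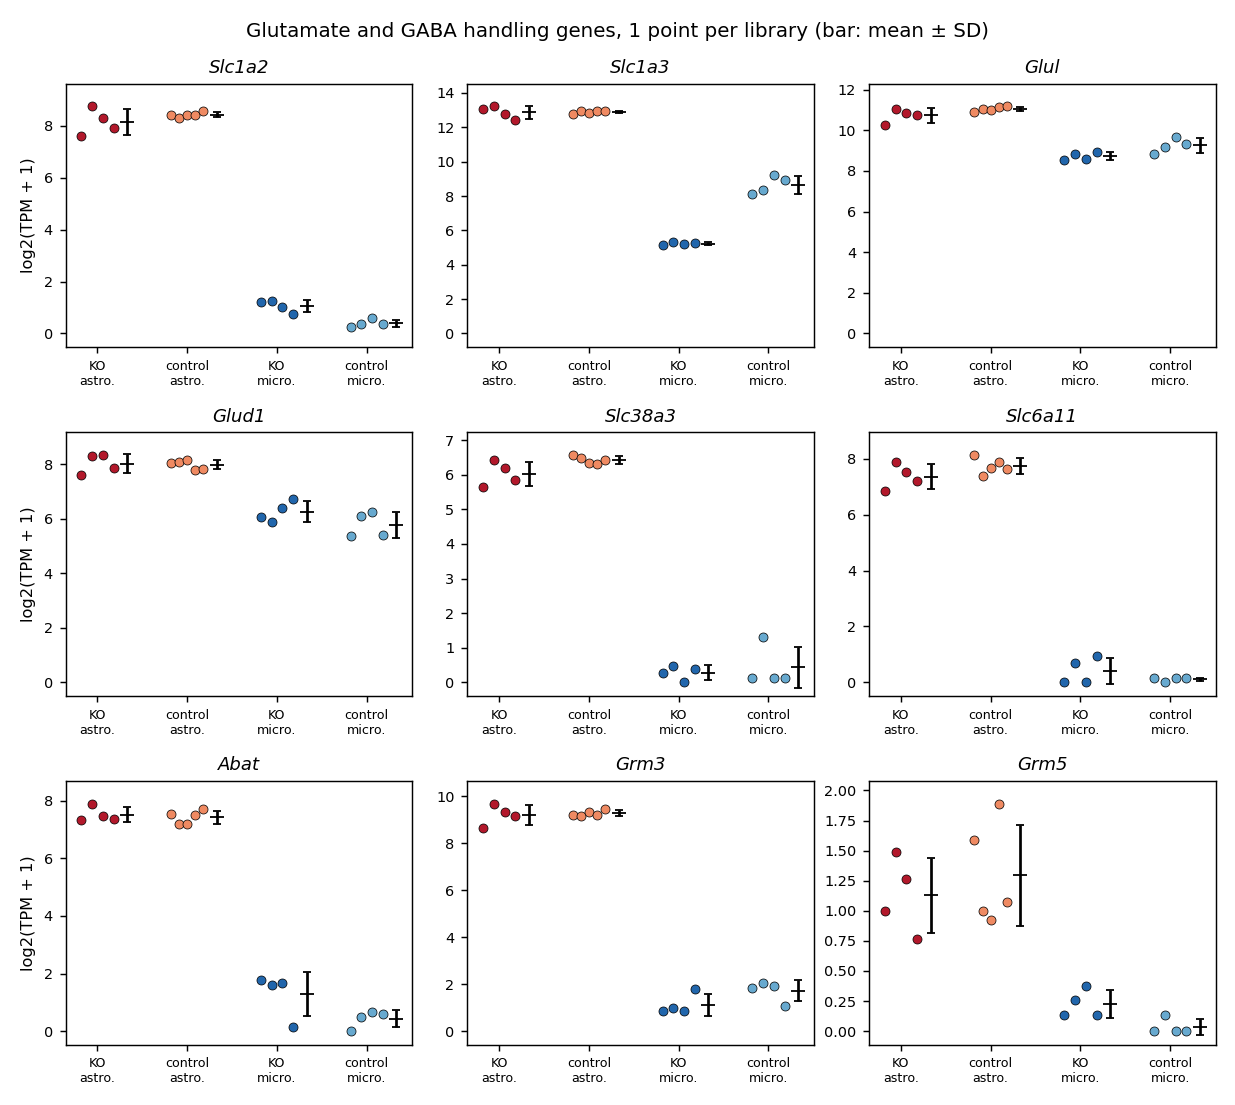
log2(TPM + 1) of each of the 9 genes, with 1 point per library, a bar for the group mean ± SD, and each KO group left of its control group. Slc1a3 in microglia is at 33.8 to 39.3 TPM in KO mice and at 274.9 to 608.3 TPM in control mice, whereas the astrocyte groups overlap for every gene.

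Slc1a3 encodes GLAST (EAAT1), a sodium-driven glutamate carrier of astrocytes, and lies on chromosome 15 at 8634124 to 8710764 on the minus strand (GRCm38). In microglia it was at 33.8, 39.3, 35.7 and 37.5 TPM in KO mice 1 to 4, against 274.9, 319.6, 608.3 and 480.8 TPM in control mice 1, 2, 4 and 5. The groups did not overlap, and the highest KO library was far under the lowest control library. The KO mean was 8.69% of the control mean (log2 fold change -3.42, SE 0.23, adjusted p = 4.4e-06). By this level Slc1a3 ranked 383rd among all genes in control microglia and 3385th in KO microglia. Against control mice 1 and 2 alone the log2 fold change was -2.99, and against control mice 4 and 5 alone it was -3.85, and it was called under every one of the 19 alternatives tried. Among all genes, 28.4% were called in KO against control microglia, 14.2% lower and 14.2% higher. The fall of Slc1a3 in these libraries was known when the genes were chosen, so its tests describe it and are no separate support.

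In KO astrocytes Slc1a3 was at 8715.0, 9526.2, 6919.6 and 5403.9 TPM in mice 1 to 4, against 7120.9, 7808.9, 7318.1, 7747.5 and 8021.3 TPM in control mice 1 to 5. KO mice 1 and 2 were above every control library and KO mice 3 and 4 below every one. The difference was not called (log2 fold change -0.03, 95% interval -0.36 to 0.31, adjusted p = 0.958). The KO effect in microglia minus that in astrocytes was -3.39 on the log2 scale (SE 0.28, adjusted p = 2.88e-07 in a fit over all 17 libraries), where 15.5% of all genes were called, 6.63% higher and 8.87% lower. Of those genes 1133 were higher and 1515 lower in this contrast, and 1415 were higher and 1252 lower after median-of-ratios scaling.

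Slc1a2 encodes GLT-1 (EAAT2), the carrier that takes up most glutamate in the adult forebrain, and lies on chromosome 2 at 102658659 to 102790784 on the plus strand. In microglia it was near the lower end of what the files record, at 1.3, 1.4, 1.0 and 0.7 TPM in KO mice 1 to 4, against 0.2, 0.3, 0.5 and 0.3 TPM in control mice 1, 2, 4 and 5. The groups did not overlap, with KO higher, but the gene did not pass the filter in the microglia. Without that filter its log2 fold change was 0.66 (adjusted p = 0.0236). The sum of 14 astrocyte markers was also higher, at 64.1 to 100.4 TPM in KO microglia, against 37.3 to 51.7 TPM in control microglia. Of 10 such markers tested, 4 were called higher in KO microglia (Aldh1l1, Acsbg1, Aldoc and S100b) and 0 lower. Among all genes 14.2% were called higher and 14.2% lower. Aldh1l1, at most 0.4 TPM in control microglia, passed the filter only through KO microglia. Control microglia alone did not pass it for Acsbg1 (0.2 to 1.5 TPM) or S100b (lowest value 0.8 TPM) either. The count of 4 is therefore not read as a result. Of the 6 not called, Gja1 averaged 8.53 TPM in KO microglia and 9.05 TPM in control microglia (log2 fold change -0.02), and F3 averaged 3.08 TPM in KO microglia and 5.33 TPM in control microglia (-0.64). Fgfr3 was at 0 in all 8 libraries and Slc4a4 at most 0.1 TPM. Whether RNA of astrocytes rose in KO microglia libraries, and its part in the Slc1a2 value, was not tested.

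In KO astrocytes Slc1a2 was at 190.8, 426.3, 315.3 and 241.0 TPM in mice 1 to 4, against 337.3, 310.5, 340.4, 335.0 and 377.6 TPM in control mice 1 to 5. KO mice 1 and 4 were below every control library and KO mouse 2 above every one. The difference was not called (log2 fold change -0.27, 95% interval -0.72 to 0.17, adjusted p = 0.565). The KO effect in microglia minus that in astrocytes was 0.93 (SE 0.26, adjusted p = 0.0234). Slc1a2 entered this fit only through the astrocytes, with microglia at 0.2 to 1.4 TPM, so its call is not read as a result. The call was lost with a pseudocount of 5 TPM (0.47, adjusted p = 0.198) and with quantile normalization (0.68, adjusted p = 0.124). It was lost with either subset of control mice (adjusted p = 0.147 and 0.110). It was also lost without KO microglia of mouse 1, KO microglia of mouse 2 or KO astrocytes of mouse 4 (adjusted p = 0.0515, 0.0515 and 0.0518).

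The ratio of both carriers was taken within each library. Slc1a3 over Slc1a2 was 26.0, 28.1, 35.7 and 53.6 in KO microglia, against 1375, 1065, 1217 and 1603 in control microglia. Slc1a2 in control microglia was at 0.2 to 0.5 TPM, kept to 1 decimal, so these control ratios are rough and their order is not read. The ratio was 45.7, 22.3, 21.9 and 22.4 in KO astrocytes, against 21.1 to 25.1 in control astrocytes. The ratio in KO microglia was above that of 3 KO astrocyte libraries and overlapped the KO astrocytes only through mouse 1. Every control microglia library was above every astrocyte library. As a share of the control astrocyte mean, Slc1a3 was 0.445% to 0.517% in KO microglia, against 3.62% to 8.0% in control microglia. The median of the astrocyte markers was 0.126% to 0.286% in KO microglia, against 0.0506% to 0.118% in control microglia.

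**Figure D2:**
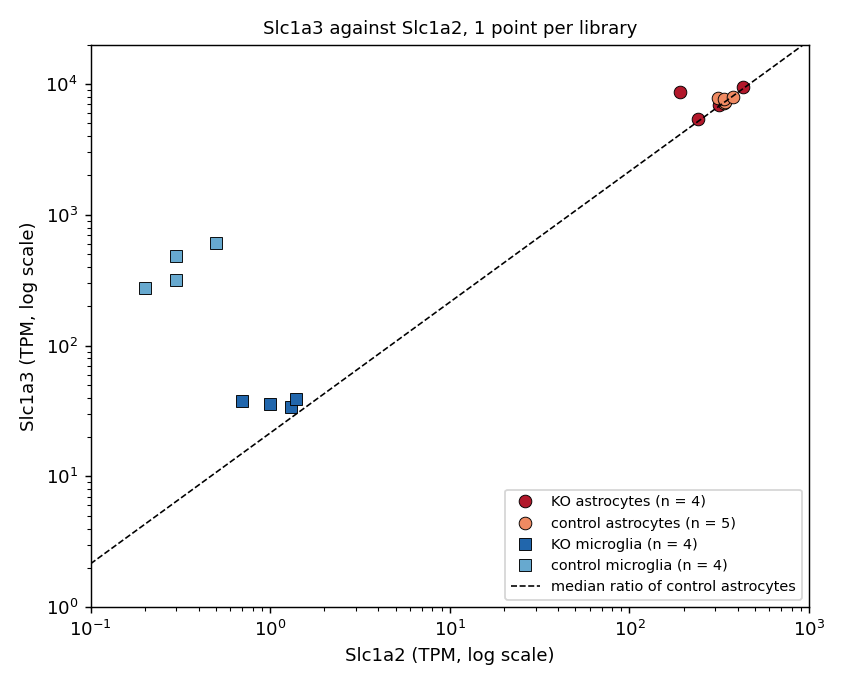
Slc1a3 TPM against Slc1a2 TPM in each library on log axes, with groups by colour and a dashed line at the median ratio of control astrocytes. KO microglia lie at a Slc1a3 over Slc1a2 ratio of 26.0 to 53.6 and control microglia at 1065 to 1603. The control ratios are rough, because Slc1a2 there is at 0.2 to 0.5 TPM, kept to 1 decimal.

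Glul encodes glutamine synthetase, which joins ammonia to glutamate to make glutamine, and lies on chromosome 1 at 153899944 to 153909723 on the plus strand. In microglia it was at 366.5, 461.5, 386.3 and 477.9 TPM in KO mice 1 to 4, against 451.5, 578.8, 818.3 and 646.2 TPM in control mice 1, 2, 4 and 5. KO mice 1 and 3 were below every control library, and KO mice 2 and 4 were above control mouse 1. The KO mean was 67.8% of the control mean (log2 fold change -0.54, SE 0.17, adjusted p = 0.0444). The call did not hold against control mice 1 and 2 alone (-0.28, adjusted p = 0.226), with the replicate block (-0.47, adjusted p = 0.0913), without the low-value filter (adjusted p = 0.0892), without a variance trend (adjusted p = 0.073) or without any single library other than control mouse 1. Slc1a3 over Glul, taken per library, was 0.0785 to 0.0924 in KO microglia, against 0.552 to 0.744 in control microglia. The annotated microRNA gene Mir8114 overlaps Glul on the same strand and Teddm2 on the opposite strand, and no strand setting is given, so reads of these genes and of Glul cannot be told apart.

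In KO astrocytes Glul was at 1206.5, 2141.1, 1828.7 and 1747.7 TPM in mice 1 to 4, against 1918.6, 2080.9, 2044.6, 2236.9 and 2309.0 TPM in control mice 1 to 5. KO mice 1, 3 and 4 were below every control library. The difference was not called (log2 fold change -0.32, 95% interval -0.65 to 0.02, adjusted p = 0.407). The KO effect on Glul was not shown to differ between the cell types (-0.22, SE 0.24, adjusted p = 0.612).

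Glud1 encodes mitochondrial glutamate dehydrogenase, which feeds glutamate carbon into the citric acid cycle, and lies on chromosome 14 at 34310727 to 34345265 on the plus strand. In microglia it was at 65.5, 57.8, 83.1 and 106.2 TPM in KO mice 1 to 4, against 40.1, 68.4, 75.4 and 41.2 TPM in control mice 1, 2, 4 and 5. The groups overlapped and the difference was not called (log2 fold change 0.48, SE 0.26, adjusted p = 0.198). Glul over Glud1 was 4.50 to 7.98 in KO microglia, against 8.46 to 15.7 in control microglia. These ranges did not overlap, but 7.98 and 8.46 lie close together. The ratio was not tested, and no share of gene pairs with such a gap was taken. In astrocytes Glud1 spanned 193.3 to 323.4 TPM in KO mice, against 224.3 to 284.0 TPM in control mice.

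Slc38a3, on chromosome 9 at 107650634 to 107669530 on the minus strand, encodes SNAT3, a carrier through which astrocytes release glutamine. In KO astrocytes it was at 49.3, 84.6, 71.8 and 56.5 TPM in mice 1 to 4, against 93.8, 88.7, 79.3, 78.1 and 85.8 TPM in control mice 1 to 5. KO mice 1, 3 and 4 were below every control library. Its unadjusted p was 0.0264 and its adjusted p 0.353 (log2 fold change -0.40, SE 0.15), so it was not called. In microglia it was at most 0.4 TPM in KO mice and at most 1.5 TPM in control mice.

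Slc6a11, on chromosome 6 at 114131241 to 114249952 on the plus strand, encodes the GABA carrier GAT3 of astrocyte processes. It was at 113.2, 233.6, 183.9 and 146.5 TPM in KO astrocytes of mice 1 to 4, against 280.2, 166.2, 201.2, 238.6 and 197.1 TPM in control mice 1 to 5. The groups overlapped and the difference was not called (log2 fold change -0.38, SE 0.21, adjusted p = 0.462). Abat, on chromosome 16 at 8513429 to 8621568 on the plus strand, encodes the transaminase that breaks down GABA. It was at 160.9 to 234.6 TPM in KO astrocytes, against 143.6 to 207.7 TPM in control astrocytes (log2 fold change 0.09, adjusted p = 0.825). In microglia Abat was at 2.4, 2.0, 2.2 and 0.1 TPM in KO mice 1 to 4, against 0, 0.4, 0.6 and 0.5 TPM in control mice 1, 2, 4 and 5, and it was under the filter. Its KO effect in microglia minus that in astrocytes was not called (0.76, adjusted p = 0.228), but was without KO microglia of mouse 4 (1.15, adjusted p = 0.00505). Abat entered both fits only through the astrocytes, so that call is not read as a result.

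Grm3, on chromosome 5 at 9485541 to 9725170 on the minus strand, encodes the glutamate receptor mGluR3, which lowers cyclic AMP and is the main metabotropic glutamate receptor of adult astrocytes. It was at 395.9 to 813.0 TPM in KO astrocytes, against 576.9 to 711.1 TPM in control astrocytes (log2 fold change -0.08, adjusted p = 0.880). In microglia it was at 0.8, 1.0, 0.8 and 2.5 TPM in KO mice 1 to 4, against 2.6, 3.1, 2.8 and 1.1 TPM in control mice 1, 2, 4 and 5. The groups overlapped through KO mouse 4 and control mouse 5, and the difference was not called (log2 fold change -0.59, SE 0.29, adjusted p = 0.170). Grm5, on chromosome 7 at 87584168 to 88134907 on the plus strand, encodes mGluR5, the calcium-releasing receptor that astrocytes express mainly early in life. It was at 0.7 to 1.8 TPM in KO astrocytes and at 0.9 to 2.7 TPM in control astrocytes, and at most 0.3 TPM in microglia of either genotype.

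Of the 4 genes of the set that could be tested in microglia, 2 were called, both lower (Slc1a3 and Glul). Among all genes 28.4% were called and 14.2% were lower, and the call of Glul was lost in 11 of 19 alternatives. The fall of Slc1a3 was known when the genes were chosen, so the count of 2 of 4 is not read as a result. In astrocytes all 9 passed the filter and 0 were called, against 0.00657% of all genes, which is 1 gene of 15231. By unadjusted limma p under 0.05, 1 of the 9 (Slc38a3) passed in astrocytes, against 12.7% of all genes (1939). This count is therefore no result about the set. The KO astrocyte libraries differed among themselves. Slc1a2, Glul, Slc38a3, Slc6a11, Abat and Grm3 kept the same order over them, lowest in KO mouse 1 and highest in KO mouse 2. Glud1 was highest in KO mouse 3, and Slc1a3 and Grm5 were lowest in KO mouse 4. In KO mouse 1 Slc1a2 was 56.1%, Glul 57.0%, Slc38a3 57.9% and Slc6a11 52.2% of the control mean, while Slc1a3 was 115% of it. In KO mouse 2 Slc1a3 was 125% and Slc1a2 125% of the control mean. The median of the astrocyte markers stood at 73.7%, 109%, 82.5% and 59.7% of control in KO mice 1 to 4. The sum of 10 oligodendrocyte markers was 9500, 7193, 8062 and 18392 TPM in KO mice 1 to 4, against 5025 to 7561 TPM in control astrocytes, and that of 11 mural and fibroblast-like markers was 6395, 767, 9664 and 3653 TPM, against 206 to 3225 TPM. The part of these other cells in the spread was not tested.

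**Figure D3:**
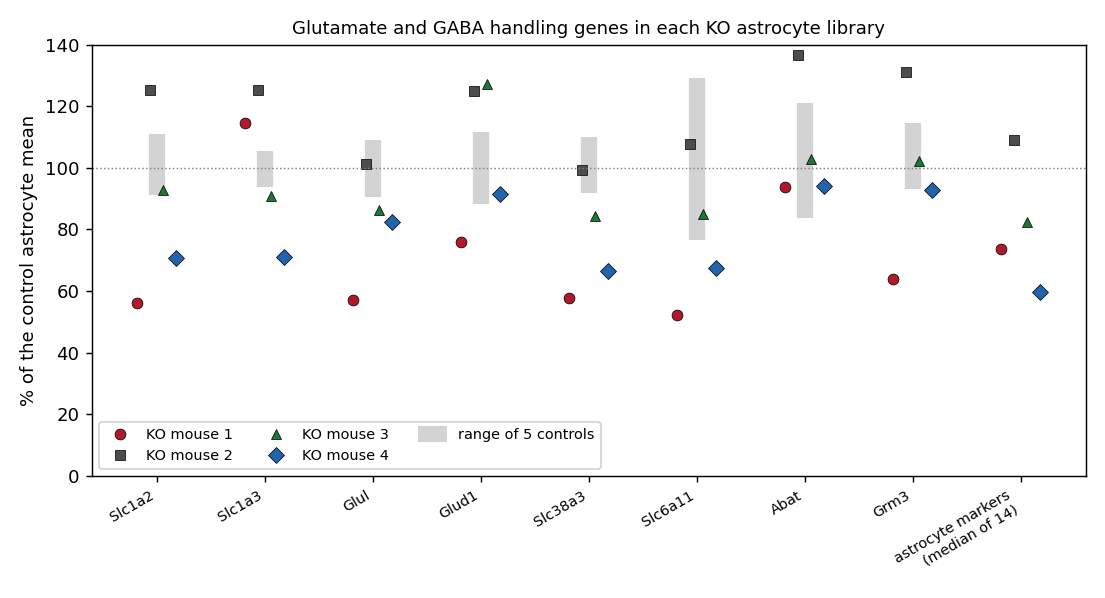
Each gene in each KO astrocyte library except Grm5 as a percentage of the control astrocyte mean, beside the median of 14 astrocyte markers, with grey bars for the range of the 5 control libraries. In KO mouse 1 Slc1a2 is at 56.1% and Slc1a3 at 115%, and in KO mouse 2 both are at 125%.

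Between cell types in control mice, the log2 differences of astrocytes over microglia were 8.01 for Slc1a2, 7.64 for Slc6a11, 7.55 for Grm3, 6.98 for Abat, 5.99 for Slc38a3, 4.24 for Slc1a3, 2.21 for Glud1, 1.79 for Glul and 1.26 for Grm5. Slc1a3, Glul, Glud1 and Grm3 were each called. Slc1a2, Slc6a11, Abat, Slc38a3 and Grm5 were called too, but passed the filter only through the astrocytes, so their calls are no result. Grm5 alone lost its call after quantile normalization (0.63, adjusted p = 0.0579). The added 1 TPM shrinks the difference of low genes: in TPM, Grm5 averaged 1.54 in control astrocytes and 0.025 in control microglia, where 3 of 4 libraries list it at 0. Of the 4 genes that pass the filter in microglia, Glul and Glud1 had the smallest differences, with ratios of mean TPM of 3.40 and 4.52. In KO mice Slc1a3 (7.64), Glul (2.01) and Glud1 (1.76) were called higher in astrocytes, where 69.4% of all genes were called, 42.9% higher and 26.4% lower. The other 5 genes tested, among them Slc1a2 (7.08), were called higher too, but passed the filter only through the astrocytes. Quantile normalization moved the median difference of all genes to -0.11 in control mice, against 0.19 as deposited, with 4850 called higher and 5534 lower, against 6062 and 4016. In KO mice it moved it to -0.11, against 0.24, with 5121 higher and 5909 lower, against 6599 and 4058.

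**Figure D4:**
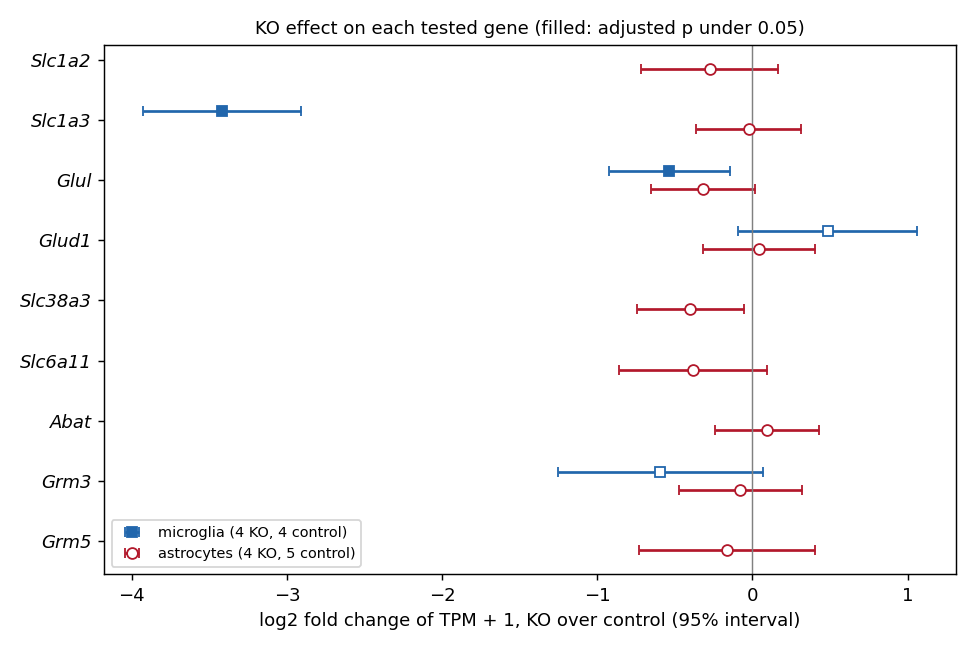
Log2 fold change of KO over control for each gene tested, in microglia and in astrocytes, with 95% intervals and filled points where the adjusted p is under 0.05. Slc1a3 lies at -3.42 in microglia and at -0.03 in astrocytes.

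Other genes of the pathway, 72 named and 71 found in the files, were counted on the same fits. In microglia 29 were tested and 15 called, 6 higher and 9 lower, against 28.4% of all genes. In astrocytes 45 were tested and 0 called, with 12 at an unadjusted limma p under 0.05, against 12.7% of all genes. Of 8 glutamine carriers tested in microglia, 6 were called lower and 1 higher, against 14.2% of all genes in each direction, with a median log2 fold change of -1.17, against 0.004 over all genes.

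Slc38a1 encodes SNAT1, a sodium-coupled glutamine importer. It was at 3.5, 3.0, 4.0 and 2.6 TPM in KO microglia of mice 1 to 4, against 13.6, 11.4, 10.9 and 10.4 TPM in control microglia of mice 1, 2, 4 and 5 (log2 fold change -1.56, adjusted p = 9.1e-05). The groups did not overlap, and the call was lost in 1 fit over all 4 groups (adjusted p = 0.0961). Slc38a2, which encodes the related importer SNAT2, was at 15.2, 14, 19.3 and 17.8 TPM in KO microglia, against 54.0, 41.0, 37.2 and 44.1 TPM in control microglia (log2 fold change -1.36, adjusted p = 0.000134). Slc7a8, which encodes LAT2, a neutral amino acid exchanger, was at 72.2, 71.3, 82.9 and 53.0 TPM in KO microglia, against 159.1, 179.6, 140 and 208.0 TPM in control microglia (log2 fold change -1.29, adjusted p = 0.000278). For both genes every KO library was below every control library.

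Of 6 genes tested in microglia from the list of other glutamate carriers, 1 was called lower and 1 higher, a share near the 28.4% of all genes. Slc1a1, Slc17a5, Slc25a18 and Slc25a22 were not called. Slc1a4 encodes ASCT1, a neutral amino acid exchanger. It was at 2.4, 1.8, 1.6 and 1.4 TPM in KO microglia, against 13.5, 34.0, 9.7 and 6.9 TPM in control microglia (log2 fold change -2.37, adjusted p = 0.0018). Slc1a5, which encodes ASCT2, was at 7.6, 5.9, 7.1 and 3.4 TPM in KO microglia, against 0.9, 1.5, 3.0 and 3.6 TPM in control microglia. Its groups overlapped through KO mouse 4, and its call (1.15, adjusted p = 0.026) was lost in 9 of the 18 alternatives in which it was tested. With control mouse 1 at 0.9 TPM, control microglia alone did not pass the filter for Slc1a5, so little is read from its call.

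Of 12 glutamate enzymes tested in microglia, 3 were called higher and 2 lower, against 28.4% of all genes called. Got1, the cytosolic aspartate aminotransferase, was at 128.1, 180.7, 218.5 and 179.4 TPM in KO microglia, against 65.3, 73.0, 58.3 and 73.8 TPM in control microglia, a log2 fold change of 1.35 (adjusted p = 0.000184). Every KO library was above every control library. Bcat2, the mitochondrial branched-chain aminotransferase, was higher in KO (0.83, adjusted p = 0.0058), and the call was lost with the replicate block (adjusted p = 0.074). Aldh18a1, which makes proline precursors from glutamate, was lower (-0.86, adjusted p = 0.00205). Of 2 GABA genes tested, Aldh9a1, an aldehyde dehydrogenase that can make GABA, was higher, at 119.9 to 153.1 TPM in KO microglia, against 53.1 to 75.2 TPM in control microglia (log2 fold change 1.04, adjusted p = 0.000269). None of the 19 other glutamate receptors could be tested in microglia.

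**Figure D5:**
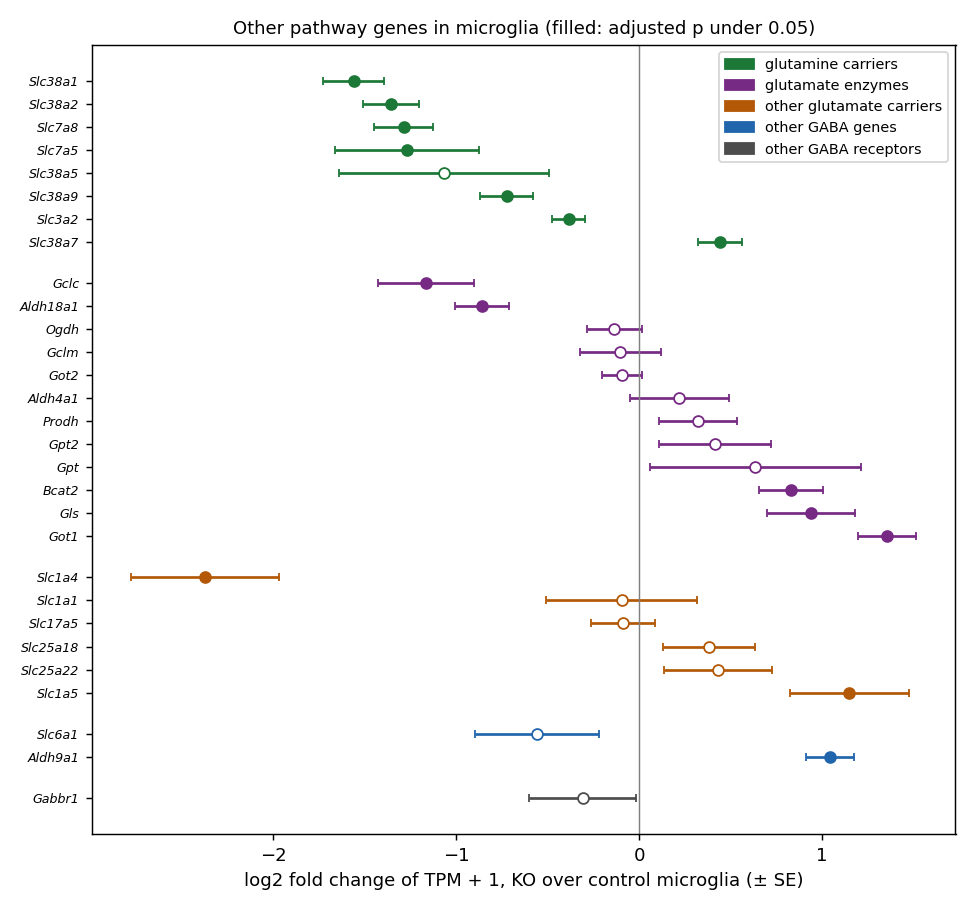
Log2 fold change of KO over control microglia for the other pathway genes tested, coloured by list, with bars for the SE and filled points where the adjusted p is under 0.05. The glutamine carriers lie mostly below 0, with a median of -1.17.

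The genes whose pattern over the 17 libraries was nearest to that of Slc1a3 were Slc39a12, a zinc carrier, Slc1a4 and Emp2, by root mean square difference of centred log2(TPM + 1) among 10098 genes (0.62, 0.72 and 0.78). Slc39a12 averaged 993 TPM in KO astrocytes and 1145 TPM in control astrocytes, and 3.2 TPM in KO microglia and 22.7 TPM in control microglia. The nearest to Slc1a2 were Ncan, Prnp and Slc25a18, at 0.24, 0.25 and 0.28. Slc1a2 therefore had closer neighbours than Slc1a3 by this measure.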

How the data were processed

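RNA of 18 libraries was analysed. The authors deposited TPM values, scaled within each library and kept to 1 decimal, so anything under 0.05 TPM reads 0. Tools in the submitters' processing notes are STAR 2.6.1e, featureCounts 1.6.2, cutadapt 1.9.1 and Trim Galore 0.4.2, with the build mm10 but no roles, annotation or strand setting. Titles gave the cell type and genotype of each group. 1 library, whose title and sample code name different cell types, entered no comparison. Each fit used log2(TPM + 1) and kept genes that reached 1 TPM in 4 or more of its libraries. Two-sided tests came from limma 3.58.1 under R 4.3.3 with its trend option, at a Benjamini-Hochberg adjusted p of 0.05. Genotypes were compared within each cell type, cell types within each genotype, and the KO effect between cell types over 17 libraries. The mouse numbers in the titles pair the cell types of 1 mouse. Deviations of same-numbered libraries correlated by 0.0333 to 0.128 in KO mice and 0.0817 to 0.201 in control mice, against -0.134 to 0.026 and -0.127 to 0.136 for other numbers. All 9 members are described; of each pathway list up to 3 called genes with the smallest p are named, and the 3 genes most like a member. The members, lists and rules were chosen with earlier results of these data known. Positions are from GENCODE M21 (GRCm38). The tests were tried on simulated data with known changes. Other software was matplotlib 3.10.9, numpy 2.4.6, pandas 2.3.3 and Python 3.11.15. Alternatives were other pseudocounts, filters, scalings and variance settings, the replicate block, 1 fit over all groups, subsets of control mice and leaving out each library.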

Additional observations from a re-analysis of the deposited data

Results flagged for a closer look

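In 70 groups of 4 or 5 values examined, 6 values, from 4 libraries, stood apart from the rest of their group by Dixon's criterion. Its chance rate of about 1 in 20 groups holds for unselected values without ties. The groups included pathway genes already called in microglia and values near 0 kept to 1 decimal, so the count is not read against that rate. Slc38a3 was at 1.5 TPM in control microglia of mouse 2. Slc6a11 was at 0 TPM in control microglia of mouse 2 and Grm5 at 0.1 TPM in control microglia of mouse 2, each the last decimal of the files away from 3 tied libraries, so nothing is read from these values. Grm3 was at 2.5 TPM in KO microglia of mouse 4, and Slc3a2, a subunit of amino acid exchangers, was at 201.3 TPM in control microglia of mouse 1. Slc1a3 over Slc1a2 was 45.7 in KO astrocytes of mouse 1, where the other 3 KO libraries were at 21.9 to 22.4.

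The KO effect differed between cell types in a limma contrast over 17 libraries for 2 of 9 members and 8 of 45 other pathway genes tested, against 15.5% of all genes. Slc1a2, Slc38a3, Slc6a11, Abat and Grm5 passed the filter only through the astrocytes, so the count of 2 of 9 is not read as a result. The call of Slc1a2 was lost in 7 of 27 alternatives. As microglia minus astrocytes on the log2 scale, the difference was -3.39 for Slc1a3, 0.93 for Slc1a2, -2.13 for Slc1a4, -2.05 for Slc38a2, -0.66 for Slc38a9, -1.11 for Gclc, 1.25 for Aldh9a1, 1.45 for Got1, 1.15 for Bcat2 and 0.93 for Prodh, a proline oxidase of mitochondria whose KO effect was called in neither cell type alone.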

How the results depend on the processing

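The TPM files carry no depth, so precision rests on 4 or 5 mice a group. In KO against control microglia the fall of Slc1a3 was called under all 19 alternatives, at -3.85 to -2.99. The number of members called, 2, was 1 without a variance trend and with control mice 1 and 2 alone. It was 4 in 1 fit over all 4 groups, and 1 to 2 when each library was left out. The fit over all 4 groups added Slc1a2 (0.66, adjusted p = 0.0193) and Abat (0.85, adjusted p = 0.0418) as higher. Both passed its filter only through the astrocytes, so the count of 4 is not read as a result. With the replicate block the number of members called was 1, and 2079 genes were called, 2011 of them among the 3711. KO and control mice share only numbers: same-numbered libraries correlated by -0.0057 to 0.0142 in microglia and -0.0844 to 0.181 in astrocytes. The block changed no member's call in the comparisons of cell types of the same mice.

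In astrocytes 1 gene was called, 3 without a filter, 0 with the replicate block, 88 in 1 fit over all groups, 0 with control mice 1 and 2 alone, 3 with the other controls alone and 0 to 5 when each library was left out (5 without KO mouse 2, 2 without control mouse 5, and 0 without KO mouse 1, KO mouse 3 or control mouse 1), none of them a member. Small differences there changed sign: with control mice 1 and 2 alone Slc1a3 was 0.0014, Glud1 -0.044 and Grm3 0.013, and with each library left out Slc1a3 ranged over -0.14 to 0.13, Grm3 over -0.23 to 0.11, Abat over -0.033 to 0.16 and Glud1 over -0.060 to 0.19. Between cell types in control mice, control mice 1 and 2 alone gave 3339 genes and 4 members and the other controls 6063 genes and 4 members, where only 4 members passed the filter. In the difference of KO effects, 2 members were called, against 1 with a pseudocount of 5 TPM, with quantile normalization, with control mice 1 and 2 alone and with the other controls alone, and 1 to 3 when each library was left out. Alternatives for the pathway genes were chosen after seeing the data: 10 to 15 were called, and 4 to 6 glutamine carriers were lower.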

Other observations

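The library in no group had Slc1a3 at 269.3 TPM, Slc1a2 at 0.5 TPM and Glul at 491.8 TPM, and a Slc1a3 over Slc1a2 ratio of 538.6. Glud1 was at 75.0, Grm3 at 4.9, Abat at 1.5 and Slc38a3 at 0.1 TPM there, and Slc6a11 and Grm5 were listed at 0. Its Glul over Glud1 ratio was 6.56, inside the range of KO microglia (4.50 to 7.98). Its microglia markers summed to 39183 TPM and its astrocyte markers to 30.5 TPM.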
